A study of Homo sapiens with 4 samples.

Results

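The cytosolic heat shock proteins described here are 10 genes chosen by symbol and found in the deposited table through their Ensembl identifiers: HSPA8, HSPA1A, HSPA1B, HSPA4, HSPH1, HSP90AA1, HSP90AB1, DNAJB1, HSPB1 and BAG3. All 10 were among the 17656 genes listed, and all 10 passed the filter on low values and were tested. The samples were 4 RNA-seq libraries of U937, a human line with monocyte features that the study lists among acute myeloid leukemia lines. The labels called 2 of them sh-ZNF217, a knockdown of the zinc finger transcription factor ZNF217, and the other 2 NC, described as untreated. The sequencing methods of the study also speak of knockdown, whereas its results text describes the sequenced cells as a CRISPR knockout, so the agent is not certain. Both hairpin and Cas9 lines were made by lentiviral transduction. All 4 column names of the table hold the token D4, which the labels do not explain, and no time point is stated. Whether NC cells carried Cas9, a guide or a hairpin was not stated in the labels. ZNF217 itself was listed at 35.81 and 34.97 TPM in the sh-ZNF217-labelled libraries, against 36.1 and 36.7 TPM in NC, a log2 fold change of -0.04 ± 0.07 (SE) with an adjusted p of 0.740. No difference in the ZNF217 transcript was thus detected, and these values do not show a knockdown. Each direction below is that of the libraries so labelled. TPM scales each gene's signal by transcript length and then by the total of the library, so levels of different genes can be set side by side, while the read depth is unknown. The study names its measure FPM, which would not be scaled by length, but the short mitochondrial gene MT-ATP8, which shares a transcript with MT-ATP6 and has 0.304 of its length, stood at 0.872 to 0.905 of its value over the 4 libraries, and MT-ND4L, with 0.216 of the length of MT-ND4, at 1.01 to 1.11 of its value.

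Cytosolic chaperones bind proteins that are not yet folded or have lost their fold. HSP70 proteins, to which HSPA8, HSPA1A and HSPA1B belong, bind short hydrophobic stretches in cycles of ATP hydrolysis that J domain proteins such as DNAJB1 start and that exchange factors such as HSPH1, HSPA4 and BAG3 end. Clients then pass to the HSP90 proteins, which complete the folding of kinases and receptors, while small heat shock proteins such as HSPB1 hold unfolded chains without ATP. Under heat or proteotoxic stress the factor HSF1 forms trimers that bind heat shock elements, repeats of GAA and its reverse complement TTC spaced by a pair of bases, in the promoters of many of these genes. HSPA8 and HSP90AB1 are known as the constitutive members of their families, and HSPA1A and HSPA1B as strongly heat-inducible HSP70 genes. Other members are heat-inducible too, and the members were not sorted by inducibility here.

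The promoters are shown because heat shock elements are known in the promoters of many of these genes. RefSeq promoter windows of 300 bases (GRCh38.p14, 250 bases before to 50 after an annotated start) were matched for all 10 genes and searched for alternating GAA and TTC units 2 bases apart. A run of 2 units is GAANNTTC or TTCNNGAA, each of which is its own reverse complement, and a run of 3 is GAANNTTCNNGAA or TTCNNGAANNTTC, which are reverse complements of each other, so that both strands are covered and a run of 3 contains runs of 2. The longest run had 3 units in 3 members, 2 units in 4 members and a single unit in the other 3 members, HSPA4, HSPH1 and BAG3. Of 35116 windows of all genes, 13.5% held 2 or more units and 0.490% held 3 or more. These shares are per window, while each member was counted by its best window, and some members have 2 or 3 windows. The stretches of 60 bases around the longest run follow, on the strand of the gene and 5′ to 3′, with the run in capitals.
HSPA8: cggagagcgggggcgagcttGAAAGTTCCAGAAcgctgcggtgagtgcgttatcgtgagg
HSP90AA1: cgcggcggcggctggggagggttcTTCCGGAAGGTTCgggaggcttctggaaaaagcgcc
HSP90AB1: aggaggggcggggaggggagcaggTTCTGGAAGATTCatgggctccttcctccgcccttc
HSPA1A: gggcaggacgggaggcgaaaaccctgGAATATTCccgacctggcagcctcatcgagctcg
HSPA1B: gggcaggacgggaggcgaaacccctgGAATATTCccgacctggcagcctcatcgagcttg
DNAJB1: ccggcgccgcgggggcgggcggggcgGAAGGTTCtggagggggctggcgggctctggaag
HSPB1: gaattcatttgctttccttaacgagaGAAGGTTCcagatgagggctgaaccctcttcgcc
The runs of 3 units lay 230 to 218 bases before the start of HSPA8 (chr11:123062327-123062386, minus strand, for the stretch shown), 88 to 76 bases before the start of the second of 2 windows of HSP90AA1 (chr14:102087097-102087156, minus strand) and 165 to 153 bases before the start of the third of 3 windows of HSP90AB1 (chr6:44247754-44247813, plus strand). Runs of 2 units lay 106 to 99 bases before the start of HSPA1A (chr6:31815411-31815470, plus strand), 105 to 98 before HSPA1B (chr6:31827607-31827666, plus strand), 77 to 70 before the second of 3 starts of DNAJB1 (chr19:14518441-14518500, minus strand, the third window holding a run of 2 as well) and 182 to 175 before HSPB1 (chr7:76302465-76302524, plus strand). The stretches of HSPA1A and HSPA1B differed at 2 of 60 bases. A match of letters is a description of the window and not a measured binding site. Runs with a mismatch or outside the windows were not searched for. A single unit therefore does not mean that a gene lacks an element.

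Levels of the 10 genes spanned a wide range, and their order was the same in all 4 libraries: HSP90AB1, HSPA8, HSP90AA1, HSPB1, HSPH1, DNAJB1, HSPA4, BAG3, HSPA1B and HSPA1A. The values of neighbours in that order did not overlap. HSP90AB1, HSPA8, HSP90AA1 and HSPB1 together made 95.2% and 95.2% of the TPM of the 10 genes in the sh-ZNF217-labelled libraries, against 95.8% and 95.8% in NC. The heat-inducible HSPA1A and HSPA1B stood at the low end. Most of their sequence is shared between them, so their listed levels may be too low, depending on how shared reads were counted.

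**Figure D1:**
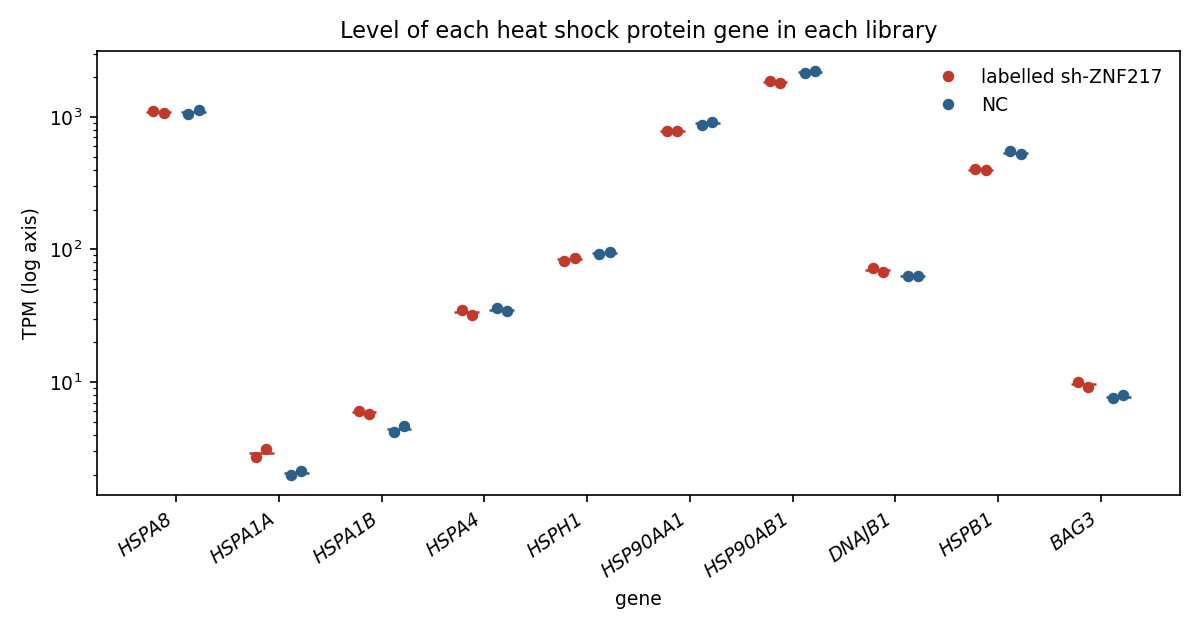
TPM of each of the 10 genes (log axis) in the 2 libraries labelled sh-ZNF217 (left, red) and the 2 NC libraries (right, blue), with the mean of each group as a short line. The genes run from 2.00 TPM (HSPA1A in NC) to 2221 TPM (HSP90AB1 in NC), and the pairs of points are apart for every gene but HSPA8 and HSPA4.

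Between the groups, HSP90AB1, HSP90AA1 and HSPB1 were lower in the sh-ZNF217-labelled libraries at an adjusted p below 0.05. HSPH1 was lower, and HSPA1A, HSPA1B, DNAJB1 and BAG3 were higher, without overlap between the groups but without passing the test, and the groups overlapped for HSPA8 and HSPA4. Differences are log2 fold changes of TPM + 1, labelled sh-ZNF217 minus NC, from a limma fit across the 14582 genes that reached 1 TPM in at least 2 libraries, with Benjamini-Hochberg adjustment over all of them. Calls needed both an adjusted p under 0.05 and a log2 fold change beyond 0.5 in either direction. By this rule 0 of 10 members were called, where 8.72% of all genes tested were (913 higher and 359 lower). At the adjusted p alone 3 of 10 passed, all of them lower (HSPB1, HSP90AB1 and HSP90AA1), where 16.9% of all genes passed in either direction, 7.11% lower and 9.77% higher. At an unadjusted p below 0.05 there were 4 of 10, against 34.4% of all genes. Groups did not overlap in 4 members that were lower and in 4 that were higher, against 28.6% and 33.5% of all genes. The median log2 fold change was -0.04 over the members and 0.02 over all genes tested. Whether the 2 libraries of each group stem from independent cultures is not in the labels, so the spread between them may be technical. These p-values rest on that spread together with the spread of other genes of similar level, which the fit draws on.

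**Figure D2:**
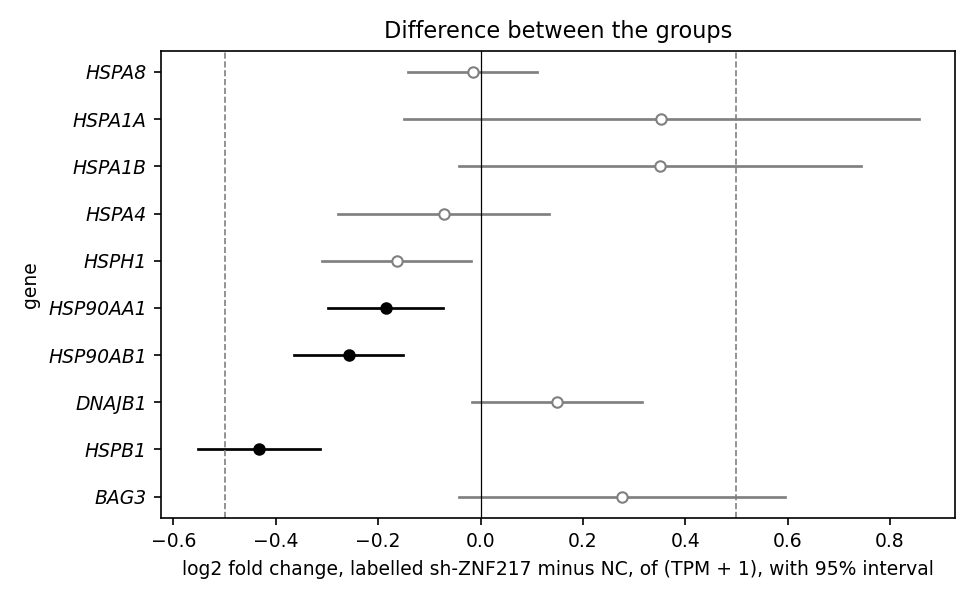
Log2 fold change of TPM + 1 (labelled sh-ZNF217 minus NC) of each gene with its 95% interval from the limma fit, filled where the adjusted p is below 0.05, and dashed lines at the fold minimum of 0.5 in each direction. HSPB1, HSP90AB1, HSP90AA1 and HSPH1 have intervals wholly below 0, the last of them not filled, and no point lies beyond a dashed line.

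HSPA8, the constitutive HSP70 that serves most routine folding in the cytosol, had 1101 and 1061 TPM in the sh-ZNF217-labelled libraries, against 1060 and 1126 TPM in NC. The NC libraries enclosed the others, for a log2 fold change of -0.02 ± 0.05 (SE; 95% interval -0.14 to 0.11) and an adjusted p of 0.860. This was the smallest difference of the 10, and its sign turned positive without NC replicate 2 (0.03) or sh-ZNF217 replicate 2 (0.01). The interval leaves room for a difference of -9.36% to 7.97% on the TPM + 1 scale. HSPA8 (chr11:123057489-123063230, minus strand) hosts snoRNAs, among them SNORD14C and SNORD14D, in overlap with annotated exons.

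The inducible pair HSPA1A and HSPA1B encodes nearly the same HSP70 protein from neighbouring genes without introns in the MHC region. HSPA1A (chr6:31815543-31817946, plus strand) was at 2.70 and 3.13 TPM in the sh-ZNF217-labelled libraries, against 2.00 and 2.12 TPM in NC. Both values of the first group were above both of the second, and the ratio of means was 1.41, yet a log2 fold change of 0.35 ± 0.20 (SE; 95% interval -0.15 to 0.86) gave an adjusted p of 0.276. At so low a level the added 1 TPM shrinks the fold, and with 0.1 added it was 0.48 with an adjusted p of 0.282. HSPA1B (chr6:31827738-31830254, plus strand) had 6.06 and 5.73 TPM, against 4.19 and 4.63 TPM in NC. Here too the groups did not overlap and the test was not passed, with a log2 fold change of 0.35 ± 0.16 (SE) and an adjusted p of 0.181.

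Reads of these 2 genes are hard to assign, since 72.4% of the 100-base windows of HSPA1A transcripts also occur in HSPA1B. How the authors' counting divided them is not given in the sources used here, so the pair was also summed. The sum was 8.77 and 8.85 TPM in the sh-ZNF217-labelled libraries, against 6.19 and 6.75 TPM in NC, with a log2 fold change of 0.39 and an adjusted p of 0.0994. HSPA1A amounted to 0.446 and 0.546 of HSPA1B in the sh-ZNF217-labelled libraries, against 0.478 and 0.458 in NC, so the ratio spread more between the first 2 libraries than between the group means. Set against the constitutive gene, the pair made 0.796% and 0.835% of the TPM of HSPA8 in the sh-ZNF217-labelled libraries, against 0.584% and 0.600% in NC. That share was higher by 37.8%, but it remained below 1% of HSPA8 in every library. Whether reads that match both genes were left out of the counting is not known. If they were, the listed levels of the pair, their sum and this share would be too low, since HSPA8 shares none of its windows.

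HSPH1 and HSPA4 are the large HSP110 relatives of HSP70 that speed the release of ADP. HSPH1 (chr13:31134973-31162388, minus strand) was at 82.2 and 85.7 TPM in the sh-ZNF217-labelled libraries, against 93.1 and 95.2 TPM in NC. The groups did not overlap, and the log2 fold change of -0.16 ± 0.06 (SE) had an unadjusted p of 0.0337 and an adjusted p of 0.114. HSPA4 (chr5:133052013-133106449, plus strand) had 35.1 and 31.9 TPM, against 35.9 and 34.5 TPM in NC. Its groups overlapped, with a log2 fold change of -0.07 ± 0.08 (SE) and an adjusted p of 0.590. HSPH1 was 2.35 and 2.69 times HSPA4 in the sh-ZNF217-labelled libraries, against 2.60 and 2.76 times in NC, and these ranges overlapped as well.

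HSP90AB1, the constitutive HSP90 gene and the most abundant member, was at 1859 and 1804 TPM in the sh-ZNF217-labelled libraries, against 2159 and 2221 TPM in NC. Each pair of libraries was close and the gap between the pairs was wide, with means of 1831 ± 39.1 in the sh-ZNF217-labelled libraries and 2190 ± 44.01 in NC (TPM, SD, n = 2 each). This log2 fold change of -0.26 ± 0.04 (SE; 95% interval -0.36 to -0.15) had an adjusted p of 0.0176, a level 16.4% lower, which did not reach the fold minimum. Leaving out sh-ZNF217 replicate 1 gave an adjusted p of 0.0795, and leaving out sh-ZNF217 replicate 2 gave 0.0984. HSP90AB1 lies at chr6:44246166-44253888, plus strand.

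HSP90AA1, the more inducible HSP90 gene, was at 789 and 780 TPM in the sh-ZNF217-labelled libraries, against 874 and 910 TPM in NC. This is a level 12.1% lower without overlap, and the log2 fold change was -0.19 ± 0.05 (SE) with an adjusted p of 0.0461. It passed narrowly, since leaving out each library in turn gave an adjusted p of 0.0707 to 0.169, and the replicate block gave 0.0791. The 2 genes were 2648 and 2583 TPM together in the sh-ZNF217-labelled libraries, against 3033 and 3131 TPM in NC. HSP90AA1 made 0.424 and 0.432 of HSP90AB1 in the sh-ZNF217-labelled libraries, against 0.405 and 0.410 in NC, a ratio 5.14% higher. HSP90AA1 (chr14:102080742-102139699, minus strand) overlaps exons of WDR20 on the other strand, and reads of the 2 cannot be told apart unless strand was used. Processed pseudogenes share few windows with these genes (2.24% of HSP90AA1 with HSP90AA2P, 1.67% of HSP90AB1 with HSP90AB3P), and the 2 pseudogenes lay at 8.27 TPM or less in every library.

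**Figure D3:**
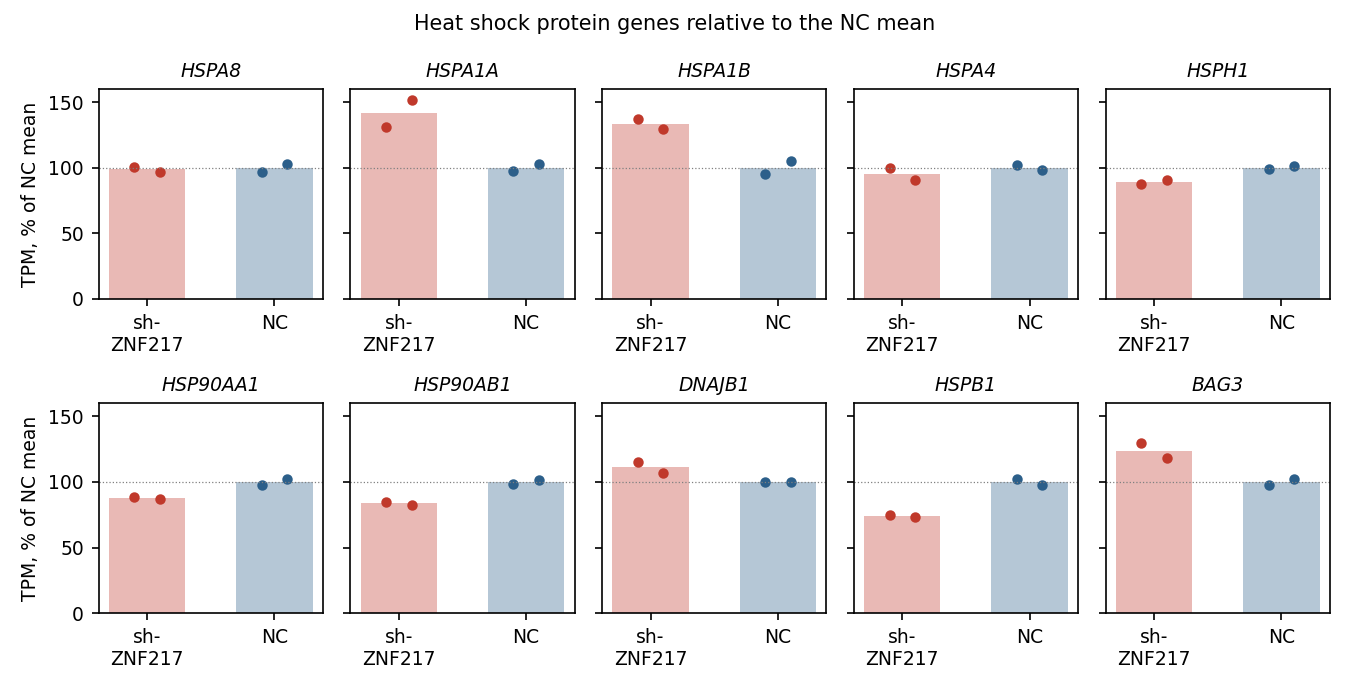
TPM of each gene as a percentage of its NC mean (axis from 0), with bars for the group means and points for the 2 libraries, labelled sh-ZNF217 at left and NC at right in each panel. HSPB1 stands lowest, 26.0% under NC, HSP90AB1 is 16.4% under it, and HSPA1A stands highest at 41.4% over it with the widest gap between its 2 libraries.

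DNAJB1, the J domain protein that delivers clients to HSP70 and starts its ATP hydrolysis, was at 72.8 and 67.7 TPM in the sh-ZNF217-labelled libraries, against 63.3 and 63.2 TPM in NC. It was 11.1% higher without overlap between the groups, at a log2 fold change of 0.15 ± 0.07 (SE) and an adjusted p of 0.179. The gene (chr19:14514769-14560391, minus strand) overlaps exons of TECR and MIR639 on the other strand.

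HSPB1, the small heat shock protein HSP27, had the largest difference of the members on the log2 scale of TPM + 1. With 0.1 added in place of 1, HSPA1A lay further from no difference (0.48, against -0.43 for HSPB1). HSPB1 was at 401 and 395 TPM in the sh-ZNF217-labelled libraries, against 550 and 527 TPM in NC. Its means were 398 ± 4.08 in the sh-ZNF217-labelled libraries and 538 ± 16.1 in NC (TPM, SD, n = 2 each), so the level was 26.0% lower with a gap well beyond the spread within either pair. A log2 fold change of -0.43 ± 0.05 (SE; 95% interval -0.55 to -0.31) went with an adjusted p of 0.00713. HSPB1 missed the fold minimum in each alternative as well, where it lay between -0.46 and -0.40. Its adjusted p was 0.0514 without sh-ZNF217 replicate 2 and 0.0651 with neither a trended nor a robust prior. HSPB1 (chr7:76302673-76304295, plus strand) shares 6.05% of its windows with HSPB1P1, a pseudogene listed at 2.23 TPM or less.

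BAG3, which links HSP70 to HSPB1 and to selective autophagy, was at 10.03 and 9.13 TPM in the sh-ZNF217-labelled libraries, against 7.56 and 7.91 TPM in NC. It was 23.9% higher without overlap, but the log2 fold change of 0.28 ± 0.13 (SE) had an adjusted p of 0.193. BAG3 lies at chr10:119651380-119677819 on the plus strand, with no annotated exon of another gene in overlap.

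The 10 genes together made 4359 and 4242 TPM in the sh-ZNF217-labelled libraries, against 4849 and 4991 TPM in NC. Their sum was thus 12.6% lower. It made 0.436% and 0.425% of all TPM in the sh-ZNF217-labelled libraries, against 0.485% and 0.4995% in NC. HSP90AB1 made 57.9% of the net difference of 619 TPM, HSPB1 22.6% and HSP90AA1 17.4%. The 4 genes with higher means were each higher by 7.04 TPM or less. A sum of TPM follows its most abundant genes, and on the log2 scale 6 members were negative and 4 positive.

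The runs of heat shock units and the directions of the members are set side by side here, and a link between them was not tested. Members with a run of 3 units were HSPA8, whose groups overlapped, and the 2 HSP90 genes, which were lower. Among those with a run of 2 units, HSPA1A, HSPA1B and DNAJB1 had higher values and HSPB1 was lower. Of the 3 members with single units BAG3 had higher values, and HSPA4 and HSPH1 had lower means. Only the 2 HSP90 genes and HSPB1 passed the adjusted p, so the other directions are uncertain.

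HSF1 is the factor that activates many of these promoters under stress. It was at 89.7 and 97.8 TPM in the sh-ZNF217-labelled libraries, against 101 and 101 TPM in NC. The log2 fold change of HSF1 was -0.11 with an adjusted p of 0.296. Its relative HSF2 had 12.8 and 13.1 TPM, against 11.3 and 10.1 TPM in NC, at 0.26 and an adjusted p of 0.181. Of the 4 listed genes for heat shock factors and their binding protein 0 were called, 0 had an unadjusted p below 0.05, and their median log2 fold change was 0.09. HSF1 activity is set largely by its protein state, which transcript levels do not measure.

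Of 7 other cytosolic HSP70 genes, 4 were in the table and 3 were tested, with 0 called and 0 at an unadjusted p below 0.05. Strictly inducible HSPA6 was at 1.52 and 2.20 TPM in the sh-ZNF217-labelled libraries, against 2.34 and 2.16 TPM in NC. Its groups overlapped, with an adjusted p of 0.605. HSPA1A and HSPA1B did not pass the test either, so no difference between these genes is shown. HSPA14, a ribosome-bound HSP70, had 75.4 and 76.5 TPM, against 79.8 and 88.7 TPM in NC, at an adjusted p of 0.218. Of 9 other genes with names or folds of small heat shock proteins only HSPB11 was in the table, at 144 and 134 TPM in the sh-ZNF217-labelled libraries and 140 and 136 TPM in NC (adjusted p of 0.909). HSPB11, also named IFT25, is an intraflagellar transport protein.

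Partners of HSP70 were mixed. Over all genes tested 8.72% were called, and 9.77% passed the adjusted p as higher and 7.11% as lower. Of 15 other J domain genes 1 was called higher and 0 lower, 3 passed the adjusted p, all of them higher, and the median log2 fold change was -0.04. DNAJB4, a relative of DNAJB1, rose to 10.8 and 10.2 TPM in the sh-ZNF217-labelled libraries, against 7.31 and 6.33 TPM in NC, a log2 fold change of 0.56 with an adjusted p of 0.0455. Without any 1 of the 4 libraries that adjusted p was 0.0804 to 0.154. Among 7 exchange and BAG proteins 0 were called higher and 1 lower, and the median was -0.12. BAG6, which guards hydrophobic segments of membrane proteins, fell to 22.4 and 23.1 TPM, against 38.9 and 29.5 TPM in NC, at a log2 fold change of -0.55 and an adjusted p of 0.0495. Its adjusted p was 0.122 when NC replicate 1 was left out, 0.167 when sh-ZNF217 replicate 1 was, and 0.149 when sh-ZNF217 replicate 2 was.

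The co-chaperones of HSP90 and HSP70 that passed the adjusted p were lower, as the HSP90 genes were. Of 22 tested, 0 were called higher and 3 lower, 8 passed the adjusted p (all lower), 16 had negative log2 fold changes, and the median was -0.20. Among all genes tested 8.72% were called in either direction and 7.11% passed the adjusted p as lower. NUDC, a dynein-linked co-chaperone of HSP90, fell to 185 and 186 TPM in the sh-ZNF217-labelled libraries, against 267 and 263 TPM in NC (log2 fold change of -0.51 and adjusted p of 0.00491). STUB1, the ubiquitin ligase CHIP that marks HSP70 and HSP90 clients for degradation, fell to 66.8 and 70.5 TPM, against 108 and 92.1 TPM in NC (-0.53 and adjusted p of 0.0188). SUGT1, an adaptor of HSP90, fell to 47.6 and 36.8 TPM, against 64.0 and 59.3 TPM in NC (-0.55 and adjusted p of 0.0432). The call of STUB1 was lost when NC replicate 1 was left out (a log2 fold change of -0.42), when sh-ZNF217 replicate 1 was (adjusted p of 0.0918) or when sh-ZNF217 replicate 2 was (0.0719). That of SUGT1 was lost without NC replicate 1 (adjusted p of 0.141), NC replicate 2 (0.0912) or sh-ZNF217 replicate 2 (0.0946). The number of co-chaperones called was 1 with mitochondrially encoded genes left out of the total, where SUGT1 kept its call and NUDC was at -0.48 and STUB1 at -0.50. It was 1 without sh-ZNF217 replicate 2 as well, and 0 with neither a trended nor a robust prior.

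Chaperones of other kinds follow by compartment. Among 14 subunits of the cytosolic chaperonin TRiC and its partner prefoldin 0 were called in the limma fit, 8 had an unadjusted p below 0.05, 7 passed the adjusted p, all lower, and the median log2 fold change was -0.29. PFDN2 was at 185 and 194 TPM in the sh-ZNF217-labelled libraries, against 259 and 270 TPM in NC, a log2 fold change of -0.48 under the fold minimum (adjusted p of 0.00757). Its difference exceeded that minimum when NC replicate 1 (-0.51) or sh-ZNF217 replicate 2 (-0.51) was left out or with median-of-ratios scaling (-0.51), and its adjusted p was 0.0503 without sh-ZNF217 replicate 1. TCP1 had 382 and 369 TPM, against 485 and 470 TPM in NC, at -0.35 and an adjusted p of 0.0120. All 11 mitochondrial chaperones and proteases had negative log2 fold changes with a median of -0.28. Of them 6 passed the adjusted p and 1 was called, TRAP1, the mitochondrial HSP90, which fell to 109 and 115 TPM, against 174 and 171 TPM in NC (-0.62 and adjusted p of 0.00480). Chaperones and stress genes of the endoplasmic reticulum showed 3 of 18 called higher and 0 lower, with a median of 0.07. DDIT3, the stress transcription factor CHOP, rose to 28.8 and 34.4 TPM, against 10.9 and 11.0 TPM in NC (1.44 and adjusted p of 0.00337). DNAJB9, a J domain partner of the HSP70 of that compartment, rose to 13.2 and 13.4 TPM, against 5.82 and 5.39 TPM in NC (1.11 and adjusted p of 0.00735), with an adjusted p of 0.0503 when sh-ZNF217 replicate 1 was left out and 0.0514 when sh-ZNF217 replicate 2 was. HERPUD1, which serves degradation from that compartment, rose to 36.4 and 39.5 TPM, against 17.9 and 25.01 TPM in NC (0.81 and adjusted p of 0.0275), and its adjusted p was 0.1002 without the first of these and 0.121 without the second. Differences between these lists were not tested. For all genes tested the share called was 8.72%, and the share passing the adjusted p was 7.11% lower and 9.77% higher. Annotated exons of HSF1, HSPA14, DNAJB4, BAG6, NUDC, STUB1, TCP1, TRAP1 and DDIT3, and of SQSTM1, LYZ and PAX5 described below, overlap those of other genes, so their values are uncertain.

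**Figure D4:**
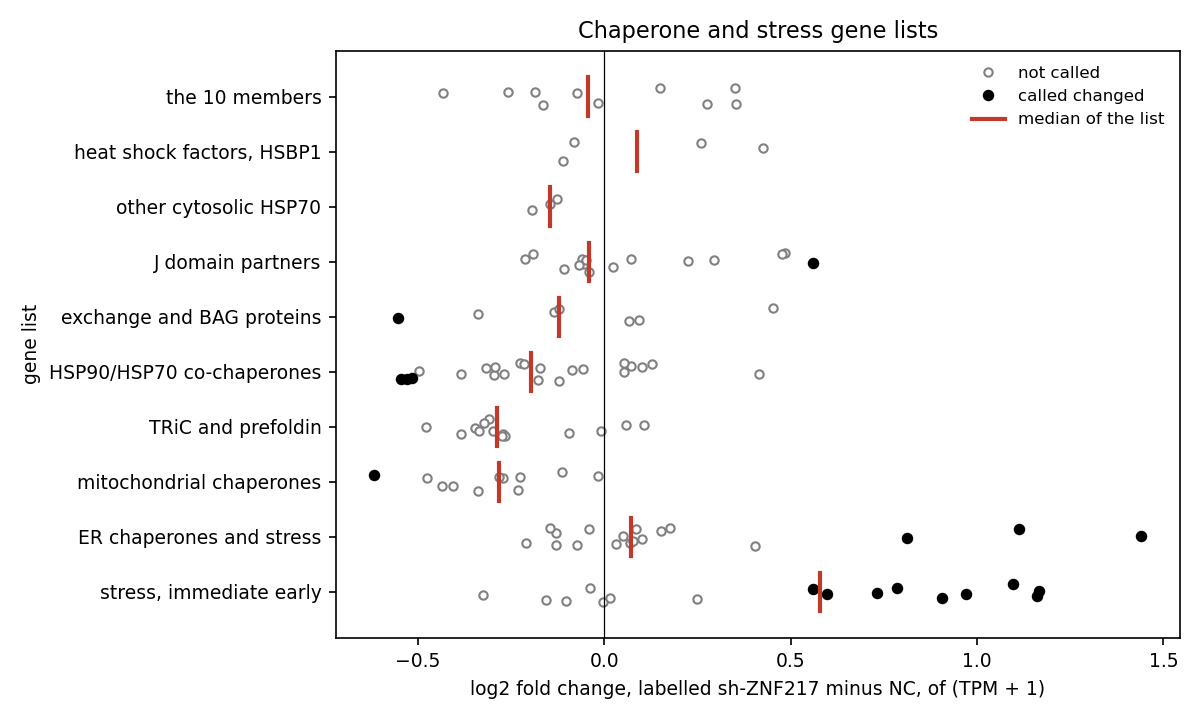
Log2 fold change of TPM + 1 (labelled sh-ZNF217 minus NC) for the tested genes of 10 lists, filled where the gene was called changed, with the median of each list as a red line. The members lie on both sides of 0 around a median of -0.04, the medians of co-chaperones, TRiC and mitochondrial chaperones lie at -0.20, -0.29 and -0.28, and that of stress and immediate early genes at 0.58.

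Genes that respond to proteotoxic or oxidative stress and early to growth signals were counted beside the members. Of 16 tested stress and immediate early genes 9 were called higher and 0 lower, where 8.72% of all genes tested were called in either direction. At the adjusted p 1 passed as lower, and the median log2 fold change was 0.58. SQSTM1, the autophagy receptor that works with BAG3, rose to 557 and 596 TPM in the sh-ZNF217-labelled libraries, against 272 and 266 TPM in NC (1.10 and adjusted p of 0.00119). HMOX1, heme oxygenase, rose to 72.0 and 80.3 TPM, against 42.5 and 37.9 TPM in NC (0.91 and adjusted p of 0.00570). JUN, a subunit of AP-1, rose to 105 and 115 TPM, against 47.4 and 49.98 TPM in NC (1.16 and adjusted p of 0.00203). These 3 calls held without each library in turn. Of 6308 genes with a mean of at least 20 TPM, ZDHHC3, TRMT6 and CRCP lay nearest to the median profile of the members. Their Euclidean distances over the 4 libraries were 0.0133, 0.0165 and 0.0179 on the log2 scale. Each had a log2 fold change of -0.04 to -0.03. Members had differences of both signs, so this median profile was nearly flat. Nearness to it does not mean likeness to the members that differed.

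Over all genes, libraries of a group differed by a median absolute log2 of 0.128 (labelled sh-ZNF217) and 0.122 (NC), and libraries of different groups by 0.243 to 0.253. Mitochondrially encoded genes took 12.5% and 12.7% of TPM in the sh-ZNF217-labelled libraries, against 9.98% and 10.8% in NC, which lowers the share left for other genes. With them left out of the total, HSPB1 was at a log2 fold change of -0.40 (adjusted p of 0.00751), HSP90AB1 at -0.22 (0.0236) and HSP90AA1 at -0.15 (0.0803), and the sum over the members differed by -10.4%. Of 10 monocytic and primary granule markers all were in the table, at summed levels of 6793 to 6879 TPM in the sh-ZNF217-labelled libraries, against 4661 to 4703 TPM in NC. Of 9 tested, 2 were called higher and 3 lower, and without LYZ the sums were 1368 and 1465 TPM in the sh-ZNF217-labelled libraries, against 1391 and 1447 TPM in NC. LYZ rose to 5511 and 5328 TPM, against 3270 and 3256 TPM in NC (adjusted p of 0.00130). CTSG fell to 290 and 292 TPM, against 458 and 469 TPM in NC (0.00238). ELANE fell to 22.1 and 22.5 TPM, against 42.4 and 36.8 TPM in NC (0.00864), with an adjusted p of 0.0537 and 0.0517 when sh-ZNF217 replicate 1 and then replicate 2 was left out. The part of these markers in the values of the members was not tested, and in bulk RNA fewer cells of a type and less RNA per cell cannot be told apart. None of 6 erythroid and none of 10 epithelial and fibroblast markers was in the table. Of T and NK cell markers 2 of 7 were, at a summed 101 to 110 TPM in the sh-ZNF217-labelled libraries, against 69.1 to 86.3 TPM in NC. Most of this sum was NKG7, at 96.9 and 105 TPM, against 85.2 and 67.5 TPM in NC, with an adjusted p of 0.0699. Of B cell markers 3 of 5 were in the table, at 4.45 to 7.06 TPM, against 5.51 to 10.7 TPM in NC. The defining CD3D, CD3E and MS4A1 were not listed. CD2, a T cell gene, was called higher (1.12 to 5.33 TPM over the libraries), with an adjusted p of 0.0741 to 0.126 without NC replicate 1 or either sh-ZNF217-labelled library, and PAX5, a B cell gene, was called lower, with an adjusted p of 0.121 to 0.173 without each library in turn.

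**Figure D5:**
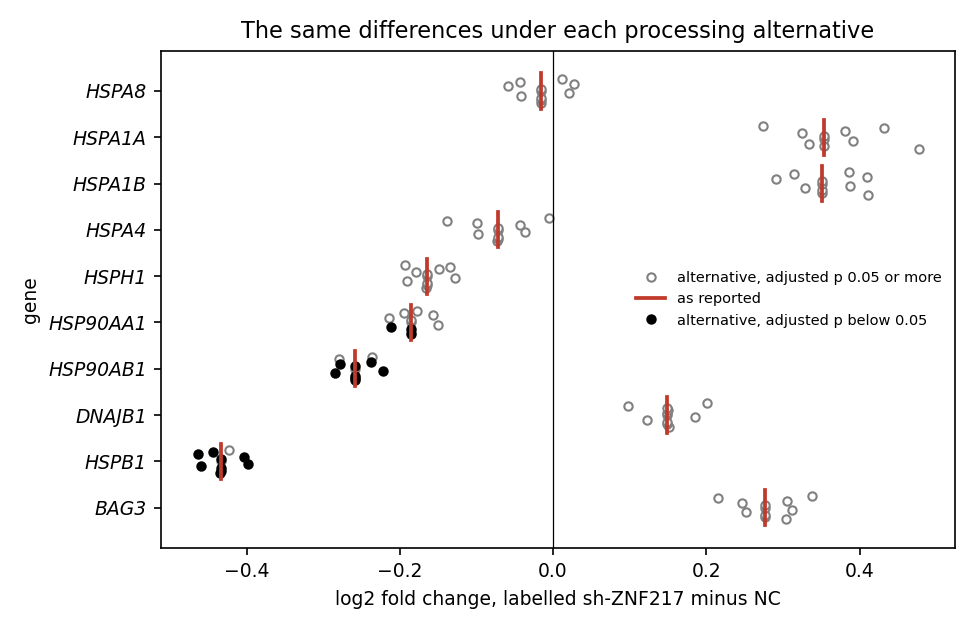
Log2 fold change of each gene (labelled sh-ZNF217 minus NC) as reported (red line) and under each processing alternative (points, filled at an adjusted p below 0.05). HSPB1 stays between -0.46 and -0.40, HSPA1A has the widest range (0.27 to 0.48), and HSPA8 alone lies on both sides of 0.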

How the data were processed

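RNA from 4 U937 libraries was measured, 2 labelled sh-ZNF217 and 2 labelled NC. The authors aligned reads with HISAT2 (version 2.0.5) to hg38, per the submitters' processing notes, and tested with DESeq2. Quantifier, annotation, strand use and depth: not given in the sources used here. Values deposited by the authors were read as TPM, although the study names its measure FPM, because each column sums to between 998932 and 999282 and MT-ATP8 and MT-ND4L had values near those of the longer genes on their transcripts. No count was recoverable from them, and no counting interval is given.

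Column names hold NC or ZNF with a replicate number, and samples were assigned by these. Parts of these names (D4 in all 4, S1 in the sh-ZNF217 columns) are not explained by the labels. Names and positions were taken from GENCODE 44 for 16143 of 17656 identifiers, and promoters from RefSeq (GRCh38.p14). Proteins were not used here. The members and gene lists were chosen with earlier results of these data known.

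Values were log2(TPM + 1), and genes reaching 1 TPM in at least 2 libraries were tested in limma 3.58.1 (R 4.3.3) with group alone, trended and robust, two-sided. Fold ratios and percent differences of levels are of mean TPM. The sum over the members and the ratios are given as values with no test, and the sum of HSPA1A and HSPA1B was fitted as an alternative. Named genes were the members, HSF1, ZNF217, up to 3 called genes per list with the smallest p (in chaperone lists without one, the 2 smallest p) and the 3 nearest in profile. The test was checked on simulated data with changes of 1 and 2 log2 units in 100 genes each. It called 74 and 97 of these, with 16 false calls. Changes as small as those of the members were not simulated. Alternatives were another pseudocount, no filter or 5 TPM, median-of-ratios scaling, no mitochondrially encoded genes, no trend or robust prior, a replicate block, leaving out each library, and HSPA1A and HSPA1B summed. Figures used matplotlib 3.10.9.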

Additional observations from a re-analysis of the deposited data

How the results depend on the processing

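No member was called changed under any alternative. Genes called over all numbered 1272 as reported, 723 with neither trended nor robust prior, 1049 with the replicate block, and 430 to 1029 when each library was left out. Members with an adjusted p below 0.05 numbered 3 as reported (16.9% of all genes), 0 without that prior (4.96% of all genes), 2 with the replicate block (11.6%) and 0 to 2 when each library was left out (3.19% to 10.3%), where a group of 1 is assumed to vary like the other. The median of the members was -0.089 to 0.0031 when each library was left out, turning positive without sh-ZNF217 replicate 2. HSPA8 was 0.020 without mitochondrially encoded genes and -0.059 to 0.028 when each library was left out, and HSPB11 was -0.014 with median-of-ratios scaling and -0.038 to 0.062 when each library was left out. HSPA1A was not tested at 5 TPM. Replicate numbers are shared by the groups, but same-numbered libraries did not deviate together (correlation of -0.0053 over 14582 genes), so the block pairs libraries by number alone.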
